A study of Mus musculus with 7 samples.

Results

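CTCFL, also called BORIS, was mapped by chromatin immunoprecipitation and sequencing in mouse 3T3 fibroblasts and in mouse P19 embryonal carcinoma cells, and its sites in the one line are set here against those in the other. All peaks of both deposited CTCFL lists were taken, 16764 from 3T3 and 5866 from P19, which makes 22630 of the 100560 peaks in the 4 lists of the series. The other lists hold 45653 CTCF peaks of 3T3 and 32277 CTCF peaks of P19. NIH3T3 is a fibroblast line from mouse embryos, and P19 is a pluripotent line from a mouse teratocarcinoma. In both CTCFL samples the labels give the stable integrates pBI-EGFP-FLAG-mCtcfl and pTA-N, the antibody CTCFL S6, culture in medium with 2 µg/ml doxycycline, and induction by 48 h without it. The CTCF samples used beside them carry the same integrates and were made with the antibody CTCF N2.2. The P19 titles name control cells, so whether CTCFL was induced there is not settled by the labels. The remaining ones of the 7 samples (both factors in 3T3 cells without the integrates, and input DNA of P19) were not used here, so neither CTCFL list was compared with cells that lack the construct.

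CTCF is a zinc-finger protein that is found in nearly all cell types, insulates genes from each other and anchors chromatin loops. CTCFL is its paralogue, with a closely similar zinc-finger domain that recognises much the same DNA sequence, but with different protein ends. It is normally made in male germ cells, and in other cells it is seen mainly in some tumours or after forced expression. Because the DNA-binding domains are alike, many sites can be bound by either protein.

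Each line had 1 CTCFL library, so differences between the lines were not checked against replicates and carry no p-value. Shares of peaks carry exact (Clopper-Pearson) 95% intervals, which cover counting error only. The depth of the libraries, and with it the depth behind a peak, is unknown. Median peak width was 283 bp in 3T3 and 581 bp in P19. The authors' score of a peak, taken to be the log10 of the p-value from peak calling multiplied by −10, had a median of 83.7 in 3T3 and 75.1 in P19 and a highest value of 3205 and 1059. Scores depend on the depth and control of each library, so a peak is ranked only within its own list, on a percentile scale on which the highest score has 100. Positions are mm9 coordinates counted from 1. No gene annotation or genome of that build was used, so sites are given by position and no gene or sequence is named.

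Most CTCFL sites belonged to a single line. Peaks of the 2 lists that overlapped by at least 1 bp were joined into regions, which gave 20386 regions. Of these, 14532 held a CTCFL peak in 3T3 only, 71.3% (95% interval 70.7 to 71.9), 3773 in P19 only, 18.5% (17.98 to 19.05), and 2081 in both, 10.2% (9.80 to 10.6). A peak in both lines is called common below, and the rest line-specific. Common peaks made up 35.7% of the P19 list (2093 of 5866) and 13.3% of the 3T3 list (2232 of 16764). P19 peaks were thus looked up in the longer list and 3T3 peaks in the shorter one. With both lists limited to their 5866 highest scores the shares drew together, at 26.7% of P19 and 27.5% of 3T3 peaks.

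Where the lists met, the peaks lay nearly on top of each other. In the 2244 overlapping pairs the median overlap was 352 bp and covered 100% of the shorter peak. The 3T3 peak lay wholly inside the P19 peak in 48.2% of pairs (46.1 to 50.3). Peak centres were a median of 94.8 bp apart (quartiles 42 and 188 bp), and 77.7% of pairs (75.9 to 79.4) had centres within 200 bp. A single peak of each line made up 92.6% of common regions. Several 3T3 peaks fell in 149 common regions and several P19 peaks in 12. Line-specific peaks were rarely near misses. From a 3T3-specific peak the nearest P19 CTCFL peak lay a median of 58051 bp away, and 4.33% (4.004 to 4.672) had one within 1000 bp. From a P19-specific peak the median was 21473 bp, and 8.08% (7.23 to 9) had a 3T3 peak within 1000 bp. The 3T3 list is the denser, which by itself shortens the second distance.

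The chance of being common rose with score in both lists, and in different ways. Each list was divided into 10 groups of nearly equal size by score. In 3T3 the share of common peaks lay between 4.71% and 6.74% in groups 1 to 6, reached 13.4% (11.8 to 15.1) in group 8 and 21.7% (19.8 to 23.8) in group 9, and was 55.1% (52.7 to 57.5) in group 10, which began at a score of 282. In P19 it climbed gradually, from 20.6% (17.4 to 24.1) in group 1 through 31.2% in group 5 to 61.1% (57.0 to 65.1) in group 10, which began at a score of 158. Sharing in 3T3 was thus concentrated at its strongest sites. The weakest P19 group had 121 common peaks of 587, and the weakest 3T3 group had 95 of 1677. These groups come from lists of different length. With both lists limited to their 5866 highest scores, group 10 exceeded group 1 by 63.7 points in 3T3 and 36.4 points in P19.

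**Figure D1:**
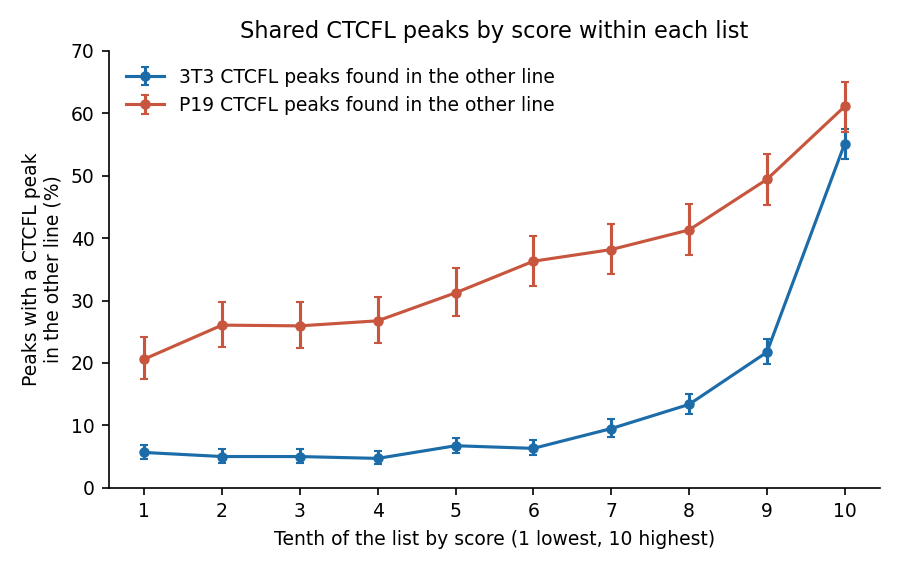
Percentage of CTCFL peaks with an overlapping CTCFL peak in the other line (vertical axis) by score group within the own list (horizontal axis, 1 lowest and 10 highest), with exact 95% intervals as bars. The 3T3 line stays under 10% up to group 7 and reaches 55.1% in group 10, and the P19 line rises from 20.6% to 61.1%.

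Among the 100 strongest 3T3 peaks, 94 were common, and among the 100 strongest P19 peaks, 75 were. The leading sites were still not the same ones, since 20 of these 100 matched a peak among the 100 strongest of the other list. The common peaks among the 100 strongest of 3T3 had a median percentile of 91.2 in P19 (quartiles 78.6 and 97.5). Those of P19 had a median percentile of 97.9 in 3T3 (88.6 and 99.7). Of the 500 strongest, 393 in 3T3 and 311 in P19 were common.

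At common regions the score ranks of the lines were only loosely related. Spearman's rho between the scores was 0.216 over the 2081 regions, which share the 2 libraries and are not independent. The median region had percentile 87.5 in 3T3 (quartiles 64.7 and 95.8) and 63.4 in P19 (36.7 and 84.8). The percentile was the higher in 3T3 in 1491 regions, 71.7% (69.7 to 73.6), with a median difference of 15.3 percentile points (quartiles −2.08 and 40.8). These percentiles come from lists of different length, and a longer list places its shared peaks higher. With both lists limited to their 5866 highest scores, 1557 regions were common, with a median percentile of 78.6 in 3T3 and 66.2 in P19. The percentile was then the higher in 3T3 in 61.5% of regions (59.1 to 63.9), with a median difference of 6.56 points (quartiles −10.9 and 30.8). On the full lists the top 10% of both lists met in 229 regions, while 260 regions stood in the top 10% of 3T3 and below percentile 50 of P19. The converse, top 10% of P19 and below percentile 50 of 3T3, was found for 40. At equal length these counts were 98 and 38. Ordered by P19 score, the lowest of 10 groups of common regions already had a median 3T3 percentile of 80.9, and the highest had 95.4.

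**Figure D2:**
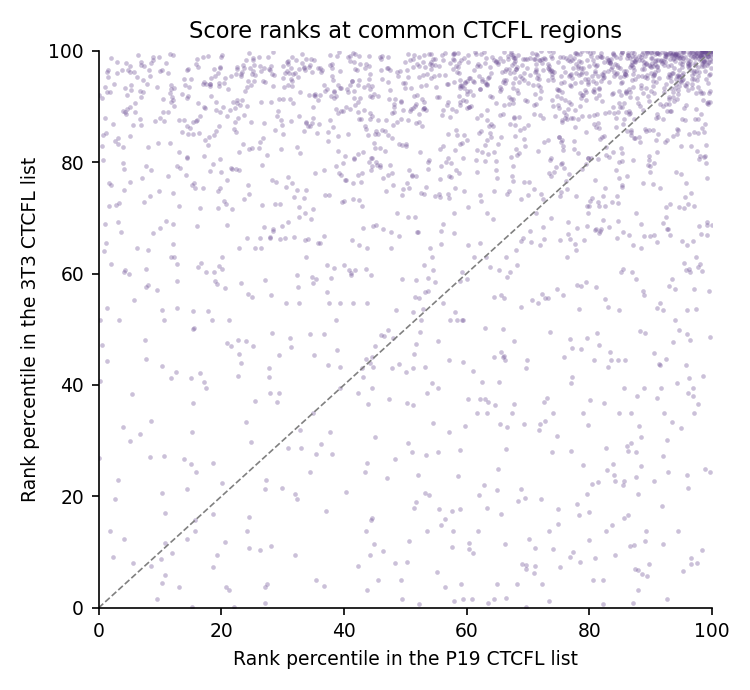
Rank percentile of each of the 2081 common CTCFL regions in the P19 list (horizontal axis) and in the 3T3 list (vertical axis), with the dashed line at equal percentiles. Points crowd along the upper edge over the whole width, and 1491 of the 2081 lie above the line.

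The regions that stood highest in both lists were led by chromosome 15 97614465 to 97615386, with a CTCFL score of 3100 in 3T3 and 663 in P19. Chromosome 17 28465022 to 28465908 followed, at 2655 and 511. Chromosome 18 56732406 to 56732953 came next, at 2576 and 497. These 3 regions also carried CTCF in both lines, with a CTCF score of 3100 in 3T3 at each, a value that 505 peaks of that list share. Chromosome 11 supplied 3 of the 8 leading regions: 77845209 to 77846165 (1863 in 3T3 and 636 in P19), 70500367 to 70501811 (1403 and 591) and 49659862 to 49660763 (1679 and 385). The remaining ones were chromosome 3 90294579 to 90295213 (2974 and 397) and chromosome 2 29932926 to 29933676 (2167 and 380). CTCF was present at all 8 in both lines.

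Regions with the most unequal ranks differed in their CTCF peaks too. In each of those named, the lower CTCFL score lay close to the lowest of its list, 50.01 in 3T3 and 50 in P19. The largest gap towards 3T3 was at chromosome 19 47538379 to 47539599, with a CTCFL score of 1046 in 3T3 (percentile 98.6) and 50.7 in P19 (percentile 2.09). Chromosome 18 12801938 to 12802997 (618 and 50.6), chromosome 10 127962510 to 127963307 (836 and 51.2), chromosome 4 45354552 to 45355436 (565 and 50.5) and chromosome 13 34056297 to 34056856 (492 and 50.6) followed. All 5 had CTCF in 3T3 at percentile 90.6 or above, and only the chromosome 19 region had CTCF in P19. Towards P19 the largest gap was at chromosome 10 42707384 to 42707952, with 50.5 in 3T3 and 179 in P19. Chromosome 2 157740321 to 157741252 had 54.4 and 263. Both carried CTCF in P19 and none in 3T3. Next came chromosome 1 88075132 to 88076129 (53.1 and 211) and chromosome 3 89253212 to 89254288 (56.3 and 294), which had CTCF in both lines at a higher percentile in P19. Chromosome 11 29426270 to 29426838 (54.3 and 237) went the other way, with CTCF in 3T3 only, at percentile 46.0.

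Common and line-specific CTCFL sites differed in how often they had CTCF, by an amount that depended on the line. Common sites were nearly always CTCF sites of 3T3: 94.5% of common P19 peaks (93.4 to 95.4) and 93.7% of common 3T3 peaks (92.6 to 94.7) lay on one. These shares count the same regions by the peaks of each list and are not separate results. Each common site also holds a 3T3 CTCFL peak. In the highest score group of 3T3, CTCF of 3T3 was at 98.7% of common and 97.3% of line-specific CTCFL peaks. Among line-specific peaks the share was 52.5% for P19 (50.9 to 54.1) and 56.3% for 3T3 (55.5 to 57.1). CTCF of P19 gave another picture. It was present at 64.6% of common P19 peaks (62.6 to 66.7) and at 69.2% of P19-specific ones (67.7 to 70.7), so common sites had it slightly less often, by −4.56 points (−7.12 to −2.02). It was present at 63.0% of common 3T3 peaks (60.9 to 65.0) and at 10.1% of 3T3-specific ones (9.56 to 10.6).

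**Figure D3:**
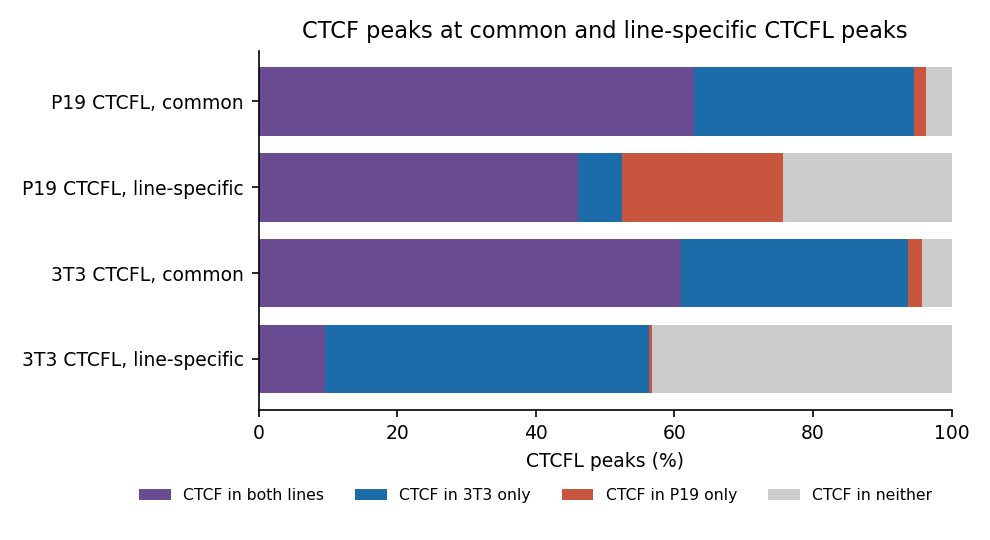
Percentage of common and line-specific CTCFL peaks of each line (rows) that overlap a CTCF peak in both lines, in 3T3 only, in P19 only or in neither. CTCF in 3T3 only (blue) makes up 31.7% of common P19 peaks and 6.41% of P19-specific ones, and CTCF in P19 only (red) makes up 1.82% and 23.1%.

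The line-specific sites of 3T3 fell mainly into a pair of classes. Of the 14532 peaks, 6794 had CTCF in 3T3 only (46.8%) and 6278 had no CTCF in either line (43.2%), against 1385 with CTCF in both lines (9.53%) and 75 with CTCF in P19 only (0.516%). Those without any CTCF were weak, with a median percentile of 32.5 in the 3T3 list, against 58.3 for those with CTCF in 3T3 only and 65.8 for those with CTCF in both. The 75 with CTCF in P19 only were lower still, at 27.8. The 3773 line-specific sites of P19 were made up differently. CTCF was bound in both lines at 1738 of them (46.1%), in P19 only at 873 (23.1%), in neither line at 920 (24.4%) and in 3T3 only at 242 (6.41%). At 1980 P19-specific sites, then, 3T3 cells had a CTCF peak without a CTCFL peak. Among these P19-specific sites, those with no CTCF were the weakest, at a median percentile of 28.9.

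Turned round, the presence of CTCF in the other line went with sharing more closely than CTCF in the same line. P19 CTCFL peaks with CTCF in 3T3 only were common in 663 of 905 cases, 73.3% (70.3 to 76.1), above the 35.7% of the whole list and above those with CTCF in both lines, at 43.1% (41.3 to 44.9). With CTCF in P19 only, 38 of 911 were common, 4.17% (2.97 to 5.68), and with CTCF in neither line 7.72% (6.14 to 9.56). The order of the classes with CTCF in 3T3 only and in P19 only was the same in groups 1 to 5 of the P19 scores, 68.3% against 1.93%, and in groups 6 to 10, 78.8% against 6.53%. In 3T3, where 13.3% of the list was common, the share was 49.5% (47.7 to 51.4) with CTCF in both lines, 37.5% (28.8 to 46.8) with CTCF in P19 only (120 peaks), 9.71% (9.05 to 10.4) with CTCF in 3T3 only and 1.51% (1.22 to 1.84) with CTCF in neither.

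The share of common sites also varied with the rank of CTCF. P19 CTCFL peaks were sorted by the score group of the 3T3 CTCF peak beneath them. Of those on the lowest group, 8 of 84 were common, 9.52% (4.20 to 17.9). The share stayed between 15.2% and 22.1% from group 2 to group 7, then went to 31.7% in group 8, 44.5% in group 9 and 83.5% (81.5 to 85.3) in group 10, which held 1512 peaks. Without a 3T3 CTCF peak it was 6.03% (5.001 to 7.191). A P19 peak can be common only where 3T3 has a CTCFL peak. The CTCFL peaks of 3T3 were themselves gathered on the high groups of 3T3 CTCF, which are of nearly equal size. Group 1 had 378 of them, group 9 had 1762 and group 10 had 3152. How much of the rise in common P19 peaks goes with this pattern within 3T3 was not tested. Sorted instead by their own line's CTCF, the P19 peaks showed little trend, with shares from 28.5% to 37.4% in groups 1 to 9 and 39.5% (36.6 to 42.5) in group 10, close to the 38.9% (36.7 to 41.1) of P19 peaks with no P19 CTCF. The difference between the highest and lowest group was 73.9 points (65.3 to 79.6) by 3T3 CTCF and 5.09 points (−3.58 to 13.2) by P19 CTCF. For 3T3 CTCFL peaks both CTCF lists gave a rise, from 37.2% to 69.5% by P19 CTCF and from 3.18% to 42.2% by 3T3 CTCF. The P19 CTCFL peaks were likewise gathered on high groups of P19 CTCF, with 151 on group 1 and 1093 on group 10. How much of the rise by P19 CTCF goes with that was not tested either.

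**Figure D4:**
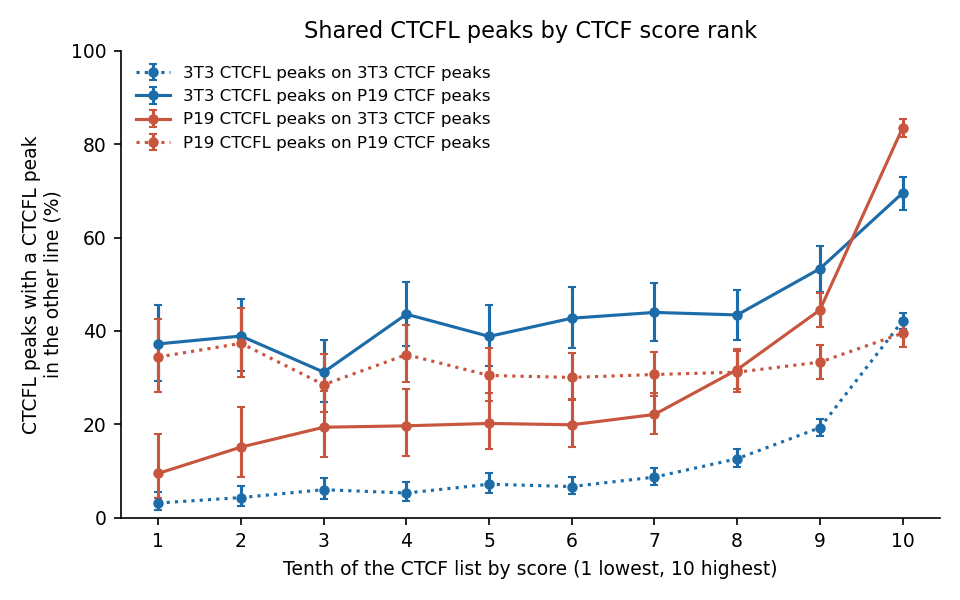
Percentage of CTCFL peaks that are common (vertical axis) by the score group of the CTCF peak they overlap (horizontal axis, 1 lowest and 10 highest), with exact 95% intervals, solid lines for CTCF of the other line and dotted lines for CTCF of the same line. P19 CTCFL peaks rise from 9.52% to 83.5% with 3T3 CTCF and stay between 28.5% and 39.5% with P19 CTCF.

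In 3T3 the common sites also had CTCF of their own line far more often than the 3T3-specific ones, by 37.4 points (36.0 to 38.7). Part of that gap went with score, since within score groups, weighted by their common peaks, it averaged 15.04 points, and among peaks scoring at least 100 it was 12.5 points. It was above 0 in all 10 groups and narrowed to 1.36 points where nearly every strong CTCFL peak had CTCF. The P19 gap kept its negative sign in each of the 10 groups, from −26.2 to −1.58 points, with an average of −9.78.

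Chromosome 9 21043006 to 21043549 was the strongest 3T3-specific site and scored 1971. It had CTCF in 3T3 and none in P19, as did a pair on chromosome 7, 117987316 to 117988218, scoring 1819, and 105851273 to 105852153, scoring 1573. CTCF of both lines was found at the other leading sites: on chromosome 5 at 145529140 to 145529750 (1771), on chromosome 6 at 83725665 to 83726001 (1570) and on chromosome 3 at 83959410 to 83959896 (1569). For these 6 the nearest P19 CTCFL peak lay between 22380 and 500393 bp away. Chromosome 11 held the leading pair of P19-specific sites, 96882829 to 96884181, scoring 633, and 120766653 to 120767182, scoring 603. Next were chromosome 17 at 4625980 to 4626706 (558), chromosome 6 at 34871698 to 34872597 (469) and chromosome 17 at 69190488 to 69191520 (465). At each of these 5, CTCF was bound in both lines. At the chromosome 17 4625980 site CTCF was near the top of the P19 list (percentile 99.99) and near the bottom of the 3T3 list (percentile 2.80). The sixth, chromosome 11 82202061 to 82202747 with 444, had CTCF in P19 only. The first of them lay 3310 bp from a 3T3 CTCFL peak, and the next nearest lay 10561 bp away.

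Line-specific sites of both lines were densest on much the same chromosomes, with a Spearman's rho of 0.866 between their numbers per Mb over 20 chromosomes, but the balance between the lines varied. P19 supplied 20.6% (20.03 to 21.21) of all line-specific regions on the 20 chromosomes compared. The interval lay above that value on chromosomes 1, 8, 9, 11, 12 and 16, and below it on chromosomes 3, 4, 5, 6, 7, 15 and, at its very edge, 19. Chromosome 16 had the highest P19 share, 29.1% (24.5 to 34.0; 108 P19-specific and 263 3T3-specific regions), and chromosome 11 had 28.8% (26.6 to 31.1; 450 and 1113). Chromosome 15 had the lowest, 15.6% (13.5 to 17.9; 168 and 909), followed by chromosome 4 at 16.5% (14.7 to 18.5; 255 and 1288). With scores of at least 100 the difference from the other chromosomes fell from −5.33 to −1.94 points on chromosome 15 and from −4.46 to −0.612 points on chromosome 4, and both intervals then included 0. At equal list length the interval of chromosome 15 included 0 as well (−4.51 points, −9.32 to 0.353). On chromosome 11 it was 8.94 points (6.62 to 11.3) on the full lists and 15.4 points with lists of equal length.

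The CTCF lists moved with some of these chromosomes and not with others. There were 70.7 P19 CTCF peaks per 100 of 3T3 over the genome. Chromosome 16 had 103 and chromosome 15 had 58.4, so the balance of CTCF leaned the same way as that of CTCFL. Chromosome 11, in contrast, had 71.6, close to the genome value, and chromosome X had 99.2 with a P19 share of CTCFL of 17.5% (12.9 to 23.0). Spearman's rho between the P19 share of line-specific CTCFL regions and the CTCF ratio was 0.417 over 20 chromosomes, which share the libraries.

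**Figure D5:**
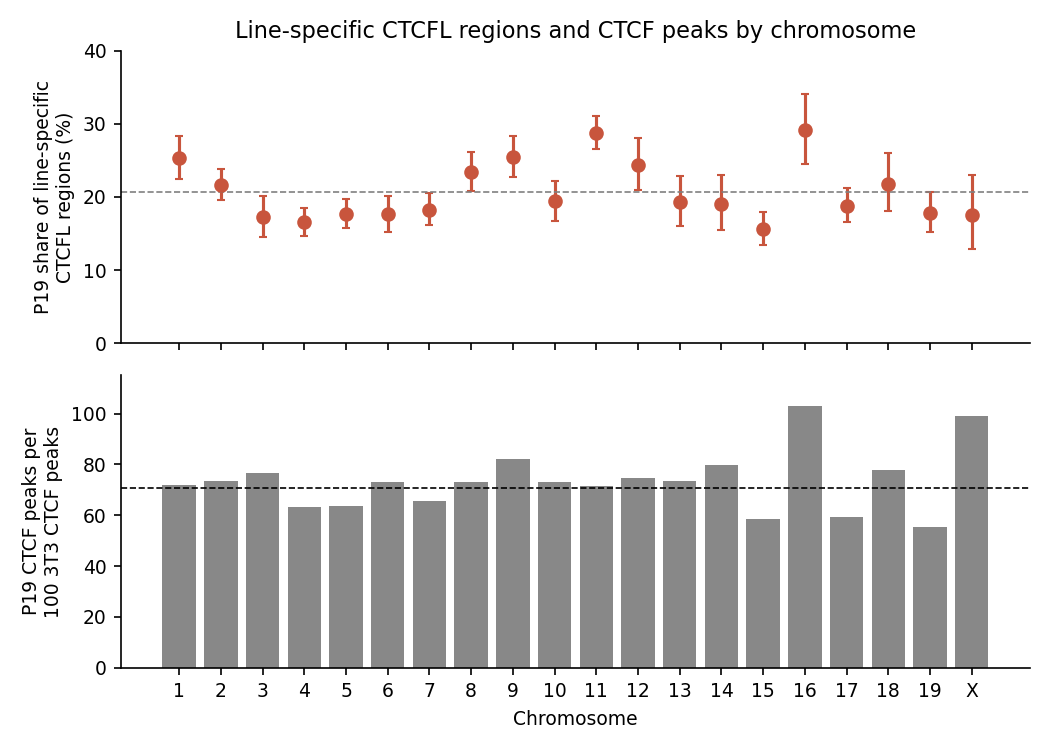
P19 share of line-specific CTCFL regions by chromosome with exact 95% intervals (upper panel, dashed line at the genome value of 20.6%) and P19 CTCF peaks per 100 3T3 CTCF peaks (lower panel, dashed line at 70.7). Chromosomes 11 and 16 stand highest in the upper panel, at 28.8% and 29.1%, and of these only chromosome 16 is raised in the lower panel.

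On most chromosomes the common share was near that of the whole list. The interval of the common share of P19 peaks held the list value of 35.7% on 16 of 20 chromosomes. It was above on chromosomes 15 and 19 (47.9%, 41.8 to 54.1, on the latter) and below on chromosomes 9 and 12 (27.1%, 21.1 to 33.9, on the latter). From the 3T3 side 15 of 20 intervals held 13.3%. Chromosome 11 was the highest at 20.04% (17.97 to 22.24), with chromosome 19 also above, and chromosomes 4, 5 and 6 were below, at 9.55%, 11.4% and 10.6%. Per Mb of the span between the first and last peak, 3T3-specific regions were densest on chromosome 19 (11.1), P19-specific regions on chromosome 11 (3.79), and common regions on chromosomes 19 (2.18) and 11 (2.15). Chromosome X was the sparsest in all 3 classes, at 1.20, 0.255 and 0.149.

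On chromosome 11 the P19 excess was not confined to a single place. Of its 13 segments of 10 Mb, only those from 1 to 10000000 (20.4%) and from 70000001 to 80000000 (18.5%) had a P19 share under the genome value, and the interval lay above it in 9 of the others. The segment from 40000001 to 50000000 had the highest share of the 139 segments in the genome with at least 50 line-specific regions, 42.4% (29.6 to 55.9; 25 P19-specific and 34 3T3-specific regions). The CTCF ratio was also high there, at 114 per 100. From 100000001 to 110000000 the share was 33.0% (26.5 to 39.98) with a CTCF ratio of 65.4. At the other end stood chromosome 4 50000001 to 60000000, with 5.56% (1.16 to 15.4). Chromosome 19 50000001 to 60000000 had 7% (2.86 to 13.9; 7 P19-specific and 93 3T3-specific regions). Chromosome 4 110000001 to 120000000 had 7.79% (4.09 to 13.2; 12 and 142). Chromosome 4 was not low throughout, since its segment from 140000001 to 150000000 had 30.9% (23.85 to 38.6). Over the 139 segments the P19 share and the CTCF ratio had a rho of 0.548.

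Pooled over the chromosomes, all 3 classes became denser towards the distal end. The last of 10 equal stretches held 16.1% (15.5 to 16.7) of 3T3-specific, 15.8% (14.7 to 17.0) of P19-specific and 14.8% (13.4 to 16.5) of common regions, and the first held 7.18%, 6.92% and 8.17%. Not every chromosome had this slope. The last stretch held more than 10% of 3T3-specific regions on 15 of 20 chromosomes, of P19-specific regions on 13 and of common regions on 12. CTCF peaks had the same pooled slope, with 15.98% in 3T3 and 15.06% in P19 in the last stretch. The pooled distal density was therefore a feature of all 4 lists rather than of line-specific sites.

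In windows of 1 Mb the numbers of line-specific regions of the 2 lines varied together, as did those of CTCF peaks. Windows share depth, gene density and mappability within a line, and no chance test was built. Counts of 3T3-specific and P19-specific regions had a Spearman's rho of 0.658 over 2583 windows. Both followed the CTCF peaks of either line. For 3T3-specific regions rho was 0.902 with CTCF of 3T3 and 0.833 with CTCF of P19, and for P19-specific regions it was 0.745 with CTCF of P19 and 0.720 with CTCF of 3T3. The CTCF counts of the lines had a rho of 0.935 with each other. The 130 densest windows held 28.6% of 3T3-specific regions (27.9 to 29.4; at least 23 a window) and 28.6% of P19-specific regions (27.2 to 30.1; at least 6 a window), and 54 windows were in both sets. Common regions had 36.9% (34.8 to 39.0) in their own 130 densest windows, and 62.4% of windows had none. Each set was picked by the counts it sums, and the classes differ in size, so these shares do not rank the classes by clustering. The 3T3-dense windows also held 23% of 3T3 and 15.8% of P19 CTCF peaks. The P19-dense windows held 19.4% and 15.8% of them, and the windows dense in common regions 20.3% and 15.5%. Windows with a P19-specific region and no 3T3-specific one numbered 130 and held 166 regions, at most 4 each. The reverse was found in 634 windows with 2116 regions, at most 34 each. These were 130 of the 1381 windows with a P19-specific region and 634 of the 1885 with a 3T3-specific one. The 3T3 list is much the longer, which by itself leaves more windows without P19, and no count at equal length is given.

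The windows richest in 3T3-specific regions were chromosome 10 80000001 to 81000000, with 74 3T3-specific, 9 P19-specific and 9 common regions, and its neighbour 79000001 to 80000000, with 71, 14 and 7. The first of these also held 186 CTCF peaks in 3T3 and 73 in P19. Chromosome 8 73000001 to 74000000 had the largest excess of 3T3, with 56 3T3-specific and 3 P19-specific regions, a P19 share of 5.08% (1.06 to 14.1). Chromosome 5 124000001 to 125000000 had 45 and 2, and chromosome 17 56000001 to 57000000 had 54 and 5. The largest excess of P19 was at chromosome 8 108000001 to 109000000, with 16 P19-specific and 21 3T3-specific regions, a share of 43.2% (27.1 to 60.5). Chromosome 11 101000001 to 102000000 followed with 13 and 18. Next by excess was chromosome 4 140000001 to 141000000, with 18 P19-specific and 41 3T3-specific regions, the most P19-specific regions in any window and on a chromosome with a low P19 share. Chromosome 11 97000001 to 98000000 came after it with 14 and 27. Common regions were most numerous at chromosome 19 5000001 to 6000000, with 16, and at chromosome 11 120000001 to 121000000 and chromosome 17 27000001 to 28000000, with 14 each.

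At the scale of neighbouring sites, series of consecutive regions of 1 class, with no region of another class between them, were longer in 3T3 on the full lists. Series of at least 5 held 59.2% of 3T3-specific and 1.75% of P19-specific regions. With lists of equal length they held 13.5% (12.5 to 14.6) and 14.5% (13.5 to 15.6), so the difference was not seen at that length. The most compact of the 3 longest was at chromosome 8 123060933 to 123642102, with 27 regions in 581 kb, of which 16 had CTCF in 3T3 and 4 in P19. Chromosome 19 53803294 to 55909293 also had 27 regions, over 2106 kb. The third 3T3 series, at chromosome 4 68614907 to 82159430, had 26 regions spread over 13544.5 kb, so a long series need not be compact. In P19 the longest series was 7 regions at chromosome 9 47338149 to 48239871, with scores up to 82.0. Of these, 1 had a P19 CTCF peak and none had a 3T3 CTCF peak, although 8 CTCF peaks of 3T3 and 13 of P19 lay in the same interval. A series of 6 within 177 kb lay at chromosome 8 108240162 to 108416786, inside the window with the largest P19 excess. There 2 regions had CTCF in 3T3 and 1 in P19. At chromosome 4 19951144 to 21774947 another 6 regions all had CTCF in P19, and 4 had it in 3T3.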

How the data were processed

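The labels' protocols state that libraries were made from 10 ng of immunoprecipitated DNA. Per the submitters' processing notes FastQC, Bowtie, SAMtools and MACS 1.4 were used, and the builds hg19 and mm9 are named, with no roles. Peak-calling settings, depth, control library and pooling were not given in the sources used here. The authors' files have 1 list a sample. Each deposited list gives chromosome, start, end, name and a score per peak by the authors' caller. The build was taken as mm9, since the organism is mouse. The gene table at hand is of another build, GRCm38.p6, and was not used for positions.

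Starts were moved to positions counted from 1. Peaks of the CTCFL lists were joined into regions by overlap of at least 1 bp, a region taking the highest score of its peaks in each list, and a region or window was placed by its midpoint. A mitochondrial 3T3 CTCFL peak (positions 1 to 1695) counts in the lists and not in chromosome comparisons. Shares have exact 95% intervals, and differences combine these. Named regions were, by rank, the 8 common regions with the highest lower percentile, the 5 with the largest rank gap each way, the 6 strongest line-specific regions per line, the windows with most regions (5 per class) or the largest excess (4 per line), and the 3 longest series per line; the text gives most. Segments of 10 Mb, the score groups of CTCF, the chromosome differences, and percentiles and series at equal list length were added after the data were seen. The regions and comparisons were chosen with earlier results of these data known. Overlap counts equalled those of bedtools 2.31.1 in 24 of 24 checks, and the code was tested on simulated data. The other tools were matplotlib 3.10.9, SciPy 1.17.1, pandas 2.3.3 and numpy 2.4.6 under Python 3.11.15.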

Additional observations from a re-analysis of the deposited data

Results flagged for a closer look

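A contrast had opposite signs in the 2 lines. Common minus line-specific CTCFL peaks differed in their share with CTCF of the same line by 37.4 points in 3T3 and by −4.56 points in P19. Of 4 contrasts examined in this way, 1 had opposite signs. There was 1 library a line, and no test of this difference was made.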

How the results depend on the processing

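No paired analysis was possible because there was only 1 library in each group, and no replicate could be left out for the same reason. With other overlap rules, score limits, list lengths, windows or autosomes alone, 29 values fell inside the reported interval and 28 outside it. Under settings chosen after seeing the data, 14 fell inside and 7 outside. None reversed in sign where the reported interval excluded 0. Limits on score or list length take out weak peaks by design, and for other shifts the cause was not tested. The common share of P19 peaks was 29.6% with centres within 200 bp, 33.0% with peaks resized to 300 bp, 41.4% with scores of at least 100 and 26.7% with lists of 5866 peaks each. The common share of 3T3 peaks was 12.5% with an overlap of 50% of the shorter peak, 10.4% by centres, 11.7% resized, 12.1% with the score limit and 27.5% at equal length. The rise from the lowest to the highest score group was 31.1 points in P19 with the score limit, and in 3T3 42.7 points by centres, 39.8 with the score limit and 63.7 at equal length. The CTCF difference in 3T3 was 39.5 points with 50% overlap, 34.2 by centres, 12.5 with the score limit and 13.4 at equal length. The rho between line-specific counts was 0.547 in windows of 0.5 Mb, 0.759 in windows of 2 Mb, 0.458 with the score limit and 0.571 at equal length. The densest windows held 31.5% of 3T3-specific regions at 0.5 Mb, 26.9% at 2 Mb, 29.5% at equal length and 27.8% on autosomes, and 34.5%, 24.9% and, with the score limit, 42.4% of P19-specific regions. At equal length the percentile was the higher in 3T3 at 61.5% of common regions, and series of at least 5 held 13.5% of 3T3-specific and 14.5% of P19-specific regions. On chromosome 4 the difference in P19 share was −6.81 points at equal length. The P19 list is short and its depth unknown, so a site that is missing there is not shown to be unbound.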
